A study of Homo sapiens with 24 samples.

Results

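This report describes 10 genes for carbonyl and quinone reductases in HepG2 cells, a long-established line from a human liver tumour: AKR1B1, AKR1B10, AKR1C1, AKR1C2, AKR1C3, AKR1A1, AKR7A2, NQO1, NQO2 and CBR1. They were listed by name and found by the NCBI Gene ID of each symbol. The rule uses no measured value, but the list was drawn up with earlier results of these data known. All 10 were among the 11927 features with a gene ID in the count table, and all 10 passed the filter on low counts, as did 11152 genes in all. Every HepG2 population had been transduced with a lentiviral vector that carries Cas9 and a guide, and selected with puromycin. The guide was sgCtrl, directed at the AAVS1 locus, or sgKeap1-1 or sgKeap1-2, directed at KEAP1. Each population was then transfected with siNC, a pool of nontargeting siRNAs, or with sitfeb/sitfe3, pooled siRNAs against TFEB and TFE3, and collected 72 hours after seeding. This gave 6 groups of 4 libraries, 24 in all, of 3527000 to 4600951 reads each. The sources describe selected populations and no cloning of single cells, so a group can hold edited and unedited cells. The sample descriptions carry 4 prefixes that read like a day and month, 1 for each replicate number and shared by all 6 groups. The labels do not say whether a prefix marks a culture, a harvest or a run, and do not call the 4 libraries of a group separate cultures, so the tests measure the spread between these libraries, which may be technical.

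Aldo-keto reductases use NADPH to reduce aldehydes and ketones to alcohols, among them steroids, prostaglandins, sugars and the aldehydes formed by lipid peroxidation. The quinone reductases carry quinones to hydroquinones without leaving a reactive semiquinone, and carbonyl reductase serves an overlapping range of substrates. Several of these genes, NQO1 and the AKR1C family foremost, are textbook targets of NRF2, the transcription factor that KEAP1 holds in check by directing it to a ubiquitin ligase. TFEB and TFE3 are transcription factors that drive genes of lysosomes and autophagy.

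On GRCh37, the build the study's methods name, the AKR1C genes form a cluster on chromosome 10. AKR1C1 spans chr10:5005445-5025475 on the forward strand, AKR1C2 chr10:5029967-5060223 on the reverse strand, and AKR1C3 chr10:5077546-5149878 on the forward strand. AKR1B1 (chr7:134127108-134144036, reverse) and AKR1B10 (chr7:134212319-134226164, forward) lie beside each other on chromosome 7. The others stand alone, with AKR1A1 at chr1:46016215-46035721 (forward), AKR7A2 at chr1:19630459-19638638 (reverse), NQO1 at chr16:69740899-69760571 (reverse), NQO2 at chr6:2988221-3019989 (forward) and CBR1 at chr21:37442239-37445464 (forward). The spans of NQO1, NQO2, CBR1, AKR1C2 and AKR1C3 overlap noncoding genes on the opposite strand, and CBR1 also overlaps the coding gene SETD4. The strand setting of the counting was not given in the sources used here, so reads of such pairs may not have been told apart.

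RefSeq promoter windows (GRCh38.p14), each of 300 bases from 250 before to 50 after the annotated start, were matched for 9 of the 10 genes. AKR1B10 had no window. The 250 bases before the starts of AKR1C1 and AKR1C2 are nearly one sequence, which is shown because these paralogues are measured side by side below. In a pairwise alignment 245 of 254 columns were identical, or 96.5%, against 71.4% for AKR1C1 with AKR1C3 and 69.6% for AKR1C2 with AKR1C3. Capitals mark bases with no identical partner in the other sequence. AKR1C1 is at chr10:4963165-4963414 on the forward strand and AKR1C2 at chr10:5003858-5004107 on the reverse strand, both on GRCh38.p14 and written 5′ to 3′.
AKR1C1: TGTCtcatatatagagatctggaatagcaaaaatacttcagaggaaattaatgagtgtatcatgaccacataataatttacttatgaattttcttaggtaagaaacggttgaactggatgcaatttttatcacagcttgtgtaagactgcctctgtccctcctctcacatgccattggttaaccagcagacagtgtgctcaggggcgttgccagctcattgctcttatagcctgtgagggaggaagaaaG
AKR1C2: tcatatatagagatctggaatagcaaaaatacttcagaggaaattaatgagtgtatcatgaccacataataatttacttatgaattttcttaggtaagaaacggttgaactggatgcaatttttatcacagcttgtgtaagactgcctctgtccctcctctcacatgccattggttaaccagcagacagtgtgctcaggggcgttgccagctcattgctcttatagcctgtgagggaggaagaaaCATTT

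A pair of motifs was searched on both strands of these windows. TGACNNNGC is the core of the antioxidant response element, bound by NRF2 with small MAF proteins, and CACGTG is the palindromic E-box that MiT/TFE factors and many others can bind. The letters of TGACNNNGC occur in 13.3% of all 35116 windows and in those of 2 members, CBR1 and AKR7A2. CACGTG occurs in 7.26% of windows and in those of 2 members, CBR1 and AKR1A1. The stretches that hold the matches are shown with the matched letters in capitals, because CBR1 carries both motifs while AKR7A2 and AKR1A1 serve as members whose RNA did not pass the tests below. CBR1 is at chr21:36069794-36069884 (forward), AKR7A2 at chr1:19312226-19312326 (reverse) and AKR1A1 at chr1:45550766-45550825 (forward), all on GRCh38.p14. A match describes letters in a short window and is not a measured site. The windows of the other 6 genes hold neither set of letters, which says nothing of sites elsewhere.
CBR1: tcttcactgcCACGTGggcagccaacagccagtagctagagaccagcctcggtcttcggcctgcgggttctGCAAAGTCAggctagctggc
AKR7A2: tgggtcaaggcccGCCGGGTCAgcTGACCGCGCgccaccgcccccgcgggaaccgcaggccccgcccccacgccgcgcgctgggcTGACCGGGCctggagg
AKR1A1: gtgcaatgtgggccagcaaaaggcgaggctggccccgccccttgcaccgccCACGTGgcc

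The targeted genes and the cell label were checked first. KEAP1 RNA was at 84.9 ± 6.69 CPM (SD, n = 4) with sgCtrl, 53.8 ± 6.17 with sgKeap1-1 and 77.4 ± 3.89 with sgKeap1-2 under siNC, where CPM is reads per 1000000 on a library size scaled by TMM. The fall with sgKeap1-1 passed the test (limma, adjusted p = 0.000102) and that with sgKeap1-2 did not (adjusted p = 0.448). RNA level does not measure editing of the gene. TFE3 was lower after sitfeb/sitfe3 in all 3 guide backgrounds, with log2 fold changes of -1.57 to -1.74, and TFEB by -1.67 to -2.15, with an adjusted p of 0.0858 for TFEB in sgCtrl. TFE3 RNA remained after knockdown, at 11.9 CPM with sgCtrl, 14.4 with sgKeap1-1 and 16.5 with sgKeap1-2. Under siNC these groups held 33.3, 49.1 and 54.9 CPM, and 1 of the 2 siRNA targets was called higher with sgKeap1-2. All 11 hepatocyte markers were in the table, and 7, 6, 7 and 7 of them were lower in the 4 comparisons of a Keap1 guide with sgCtrl described below. Their summed level was 31300 to 42600 CPM in the sgCtrl libraries under siNC, 23000 to 26300 with sgKeap1-1 and 21900 to 24000 with sgKeap1-2. Of 12 markers of fibroblasts, endothelium and leukocytes 3 were in the table, PDGFRB, CD68 and LYZ, and none of the endothelial ones. Their summed level was at most 11.6 CPM for the fibroblast list and 947 to 2810 CPM for the leukocyte list. LYZ fell with both guides under siNC (log2 fold changes of -0.61 and -0.58). CD68 was not called there, and the median log2 fold change of these 2 leukocyte markers was 0.02 and -0.03. The part of these shifts in the values below was not tested. In bulk RNA, fewer cells of a type and less RNA per cell cannot be told apart.

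A pair of libraries stood apart from the rest on the second principal component, replicate 1 of sgKeap1-1 under siNC (54.09) and replicate 1 of sgKeap1-2 under sitfeb/sitfe3 (43.06), where the other 22 lay between -12.6 and 5.93. Both carry the prefix of the libraries numbered 1, as do 4 others that did not stand apart. Among the members both libraries had the lowest AKR1B10 and AKR1C3 and the highest AKR1A1 and AKR7A2 of their group. Some results below are given with and without them. Without them, the log2 fold change of NQO2 with sgKeap1-1 under siNC was -0.34 in place of -0.16. That of AKR1A1 after sitfeb/sitfe3 in sgKeap1-2 was 0.09 in place of 0.18. The difference of AKR1B10 between the Keap1 guides was 0.3 in place of 0.43. None of these passed the test with or without the libraries.

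The AKR1C genes rose with both Keap1 guides, and all 3 did so under either siRNA. AKR1C1 inactivates progesterone by reducing it. Under siNC its libraries held 862, 1275, 1043 and 1137 CPM with sgCtrl, 3926, 4133, 3914 and 3958 with sgKeap1-1 and 5459, 5516, 5023 and 5117 with sgKeap1-2. Every Keap1 library was above every sgCtrl library, and the ranges of the 2 guides did not overlap either. How many of all genes had separate ranges for the 2 guides was not counted, and the guides are compared below. AKR1C1 was 3.73-fold higher with sgKeap1-1 (log2 fold change 1.90, SE 0.13, adjusted p = 1.47e-10) and 4.93-fold higher with sgKeap1-2 (log2 fold change 2.30, SE 0.13, adjusted p = 4.35e-12, limma). In the sitfeb/sitfe3 libraries the levels were 904, 822, 608 and 1233 with sgCtrl, 3403, 3038, 3161 and 3246 with sgKeap1-1 and 4311, 3892, 3791 and 4144 with sgKeap1-2. The groups again stood apart from sgCtrl in every library, with log2 fold changes of 1.89 and 2.22. The order of the 6 group means ran from sgCtrl under sitfeb/sitfe3 (892 ± 259 CPM) and sgCtrl under siNC (1079 ± 173), which overlapped, to sgKeap1-2 under siNC (5279 ± 245), which no other group reached. In between, sgKeap1-1 under siNC (3983 ± 102) and sgKeap1-2 under sitfeb/sitfe3 (4034 ± 237) overlapped, and sgKeap1-1 under sitfeb/sitfe3 (3212 ± 153) lay below both.

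AKR1C2, which reduces dihydrotestosterone to a weaker androgen, rose further than AKR1C1 on the log2 scale. It was at 365, 429.6, 272 and 233 CPM with sgCtrl, 2852, 2379.7, 2615 and 2182 with sgKeap1-1 and 3825, 2917, 2679 and 2937 with sgKeap1-2 under siNC. All 8 Keap1 libraries were above the sgCtrl libraries, and the 2 guides overlapped. The fold changes were 7.89 (log2 2.98, SE 0.21, 95% interval 2.56 to 3.40, adjusted p = 1.47e-10) and 9.67 (log2 3.27, SE 0.20, adjusted p = 1.26e-11, limma). After sitfeb/sitfe3 the libraries held 401, 217, 198 and 487 CPM with sgCtrl, 2621, 1958, 2377 and 2141 with sgKeap1-1 and 2919, 2599, 2463 and 2925 with sgKeap1-2. The sgCtrl libraries were again the low ones without overlap, and the log2 fold changes were 2.90 and 3.17.

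AKR1C3, which makes testosterone and prostaglandin F, changed least of the AKR1C genes. It was at 166, 258, 217 and 242 CPM with sgCtrl, 497, 608, 561 and 658 with sgKeap1-1 and 685, 737, 741 and 668 with sgKeap1-2 under siNC. The lowest Keap1 library, replicate 1 of sgKeap1-1, was still above the highest sgCtrl library. The rise was 2.65-fold (log2 1.41, SE 0.12, adjusted p = 2.8e-09) and 3.25-fold (log2 1.70, SE 0.12, adjusted p = 4.67e-11, limma). Under sitfeb/sitfe3 it was 2.48-fold and 2.98-fold, from 191 to 252 CPM with sgCtrl to 522 to 577 with sgKeap1-1 and 576 to 716 with sgKeap1-2.

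AKR1B10, a reductase of retinal and lipid aldehydes that is often high in liver cancers, had the largest fold change of the 10 genes. Under siNC it was at 62.5, 109, 57.1 and 68.2 CPM with sgCtrl, 356, 1227, 1059 and 1328 with sgKeap1-1 and 1349, 1389.6, 1572 and 1365 with sgKeap1-2. The low value with sgKeap1-1 is that of replicate 1, a library that stands apart, and it too lay above every sgCtrl library. AKR1B10 was 12.3-fold higher with sgKeap1-1 (log2 3.62, SE 0.34, 95% interval 2.92 to 4.31, adjusted p = 3.48e-08) and 19.6-fold higher with sgKeap1-2 (log2 4.30, SE 0.34, adjusted p = 8.46e-10, limma). Without the 2 libraries that stand apart the log2 fold change with sgKeap1-1 was 4.06 and that with sgKeap1-2 was 4.30. Under sitfeb/sitfe3 the libraries held 92.4, 46.6, 44.02 and 136 CPM with sgCtrl, 1064, 1112, 1143 and 1084 with sgKeap1-1 and 847, 1182, 1686 and 1414 with sgKeap1-2. The spread was wide within sgCtrl and within sgKeap1-2, whose replicate 1 is the other library that stands apart, but the groups did not overlap. The log2 fold changes were 3.95 and 4.13, and 3.96 and 4.32 without those libraries.

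AKR1B1, or aldose reductase, which turns glucose into sorbitol, is the chromosomal neighbour of AKR1B10 and moved far less. It was at 81.8, 88.5, 92.4 and 76.4 CPM with sgCtrl, 120.5, 127, 122 and 112 with sgKeap1-1 and 123, 121, 109 and 121 with sgKeap1-2 under siNC. The Keap1 libraries were all higher, by 1.42-fold (log2 0.51, SE 0.10, adjusted p = 0.00118) and 1.401-fold (log2 0.49, SE 0.10, adjusted p = 0.0014, limma). Under sitfeb/sitfe3 it was at 107, 78.7, 85.5 and 102 CPM with sgCtrl, 107, 124, 102 and 108 with sgKeap1-1 and 129, 140.0, 123 and 125 with sgKeap1-2. There sgKeap1-1 overlapped sgCtrl and did not pass the test (log2 fold change 0.25, 95% interval 0.04 to 0.46, adjusted p = 0.128), whereas sgKeap1-2 did (0.48, adjusted p = 0.00102). Averaged over both guides, the difference of the Keap1 effects between the siRNAs was -0.13 (95% interval -0.39 to 0.13, limma adjusted p = 0.9988). That average includes sgKeap1-2, at 0.49 and 0.48. The difference for sgKeap1-1 alone, at 0.51 under siNC and 0.25 under sitfeb/sitfe3, was not tested. Whether the missed call reflects a smaller effect was therefore not decided.

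**Figure D1:**
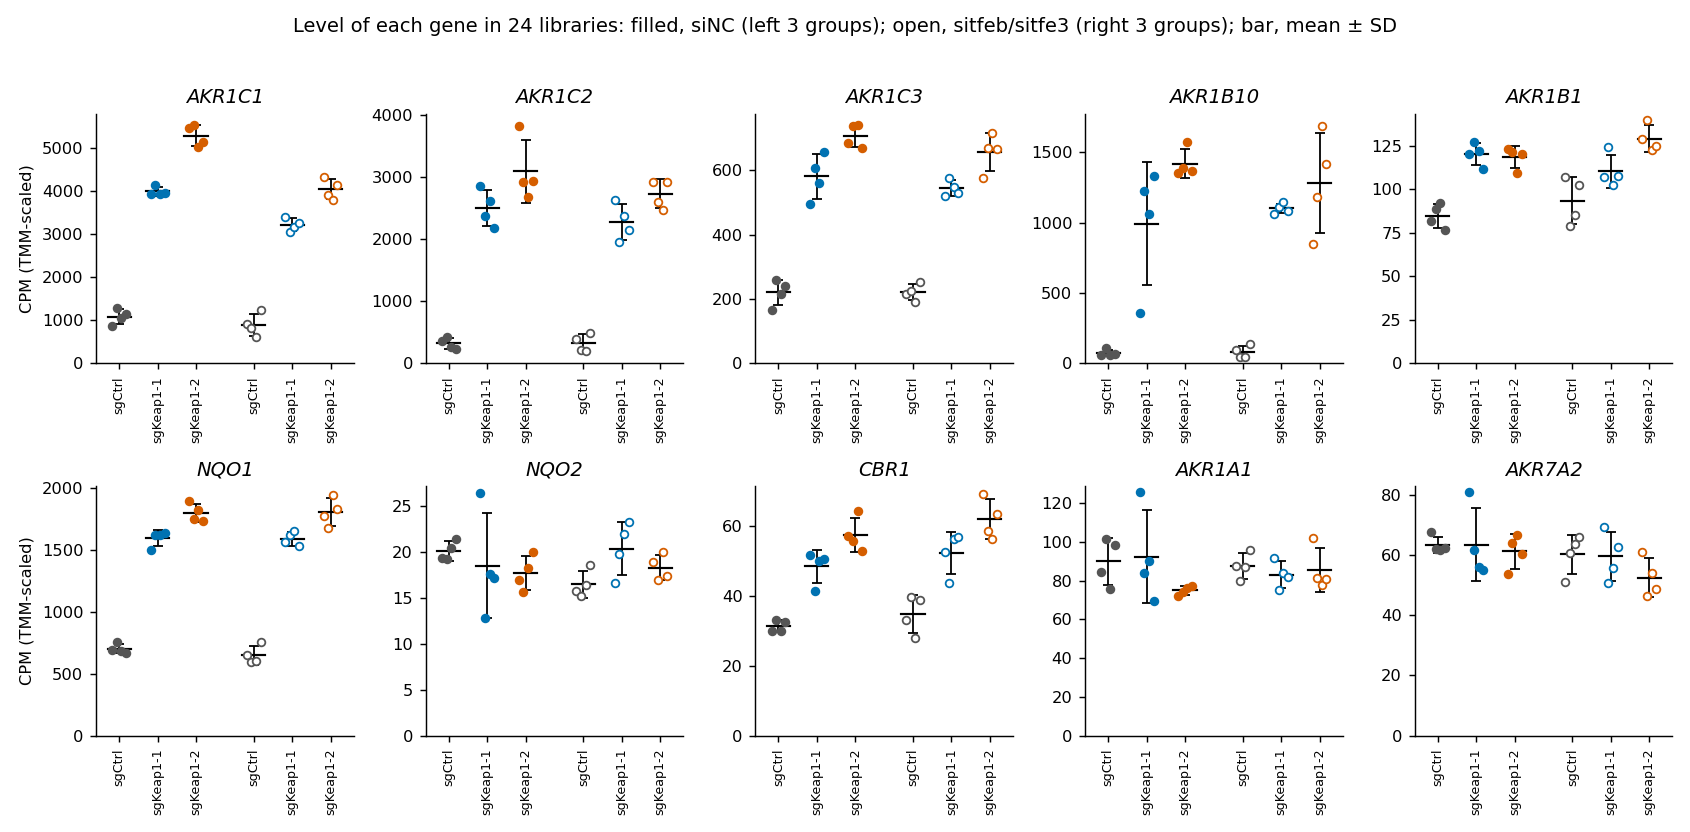
Level of each of the 10 genes in TMM-scaled CPM (vertical axis, linear from 0) in the 4 libraries of each of 6 groups (points), with group means and SD (bars), siNC on the left and sitfeb/sitfe3 on the right of each panel. For AKR1C1, AKR1C2, AKR1C3, AKR1B10, NQO1 and CBR1 every Keap1 library lies above every sgCtrl library under the same siRNA, while NQO2, AKR1A1 and AKR7A2 overlap.

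NQO1, the quinone reductase used as a marker of NRF2 activity, rose with little spread between libraries. Under siNC it was at 693, 752, 686 and 669.6 CPM with sgCtrl, 1497, 1618, 1619.9 and 1637 with sgKeap1-1 and 1892, 1749.7, 1822 and 1733 with sgKeap1-2. The ranges of the 3 guides were separate, in that order. How many of all genes had separate ranges for the 2 Keap1 guides was not counted. Averaged over the siRNAs, the NQO1 difference between those guides was not called (limma adjusted p = 0.289). NQO1 was 2.28-fold higher with sgKeap1-1 (log2 1.19, SE 0.08, adjusted p = 1.47e-10) and 2.57-fold higher with sgKeap1-2 (log2 1.36, SE 0.08, adjusted p = 4.35e-12, limma). Under sitfeb/sitfe3 the libraries held 647, 592, 599.8 and 758 CPM with sgCtrl, 1562, 1619, 1651 and 1528 with sgKeap1-1 and 1774, 1673, 1944 and 1832 with sgKeap1-2. The 3 guides again did not overlap, and the log2 fold changes were 1.30 and 1.48.

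NQO2, a paralogue that takes dihydronicotinamide riboside in place of NADPH, was read shallowly, with 46 to 105 reads per library. It was at 19.3, 19.2, 20.4 and 21.5 CPM with sgCtrl, 26.5, 12.8, 17.6 and 17.1 with sgKeap1-1 and 16.9, 15.6, 18.3 and 20.02 with sgKeap1-2 under siNC. The groups overlapped, and the log2 fold changes were -0.16 (95% interval -0.50 to 0.18, adjusted p = 0.63) and -0.18 (95% interval -0.52 to 0.17, adjusted p = 0.559, limma). Under sitfeb/sitfe3 they were 0.30 (95% interval -0.04 to 0.65) and 0.15 (95% interval -0.20 to 0.50). These intervals lie below the lowest log2 fold change of NQO1 in the same 4 comparisons.

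CBR1, a carbonyl reductase of prostaglandins and anthracyclines, rose by less than a doubling. It was at 29.97, 33.2, 29.9 and 32.5 CPM with sgCtrl, 51.7, 41.4, 50.02 and 50.6 with sgKeap1-1 and 57.04, 55.7, 64.4 and 52.9 with sgKeap1-2 under siNC. Every Keap1 library was higher, by 1.54-fold (log2 0.62, SE 0.13, adjusted p = 0.00176) and 1.83-fold (log2 0.87, SE 0.13, adjusted p = 1.88e-05, limma). Under sitfeb/sitfe3 the libraries held 33.2, 39.6, 28.03 and 38.9 CPM with sgCtrl, 52.5, 43.7, 56.2 and 56.9 with sgKeap1-1 and 69.3, 58.6, 56.3 and 63.5 with sgKeap1-2, without overlap between sgCtrl and either guide. The log2 fold changes there were 0.59 (adjusted p = 0.00209) and 0.83 (adjusted p = 1.66e-05). With 104 to 285 reads per library, CBR1 carries more counting error than NQO1 or the AKR1C genes.

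AKR1A1, the aldehyde reductase of the glucuronate route, and AKR7A2, which reduces succinic semialdehyde and aflatoxin dialdehyde, did not pass the test in any of the 4 comparisons. AKR1A1 was at 84.3, 101, 75.5 and 98.3 CPM with sgCtrl, 126, 83.9, 90.2 and 69.7 with sgKeap1-1 and 72.01, 74.01, 76.4 and 77.3 with sgKeap1-2 under siNC. The groups overlapped. Its log2 fold changes were 0.01 (95% interval -0.27 to 0.29) and -0.26 (95% interval -0.54 to 0.03, adjusted p = 0.24), and -0.08 and -0.05 under sitfeb/sitfe3. AKR7A2 was at 67.6, 62.1, 61.7 and 62.5 CPM with sgCtrl, 81.1, 61.7, 56.1 and 55.2 with sgKeap1-1 and 53.7, 64.1, 66.9 and 60.5 with sgKeap1-2 under siNC, again with overlap. Its log2 fold changes were -0.02 (95% interval -0.28 to 0.25) and -0.05 (95% interval -0.31 to 0.21), and -0.02 and -0.21 (95% interval -0.48 to 0.06) under sitfeb/sitfe3. The high values of both genes with sgKeap1-1 are those of the library that stands apart. Without the 2 libraries that stand apart, the log2 fold changes with sgKeap1-1 under siNC were -0.15 for AKR1A1 and -0.14 for AKR7A2, and neither passed the test.

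**Figure D2:**
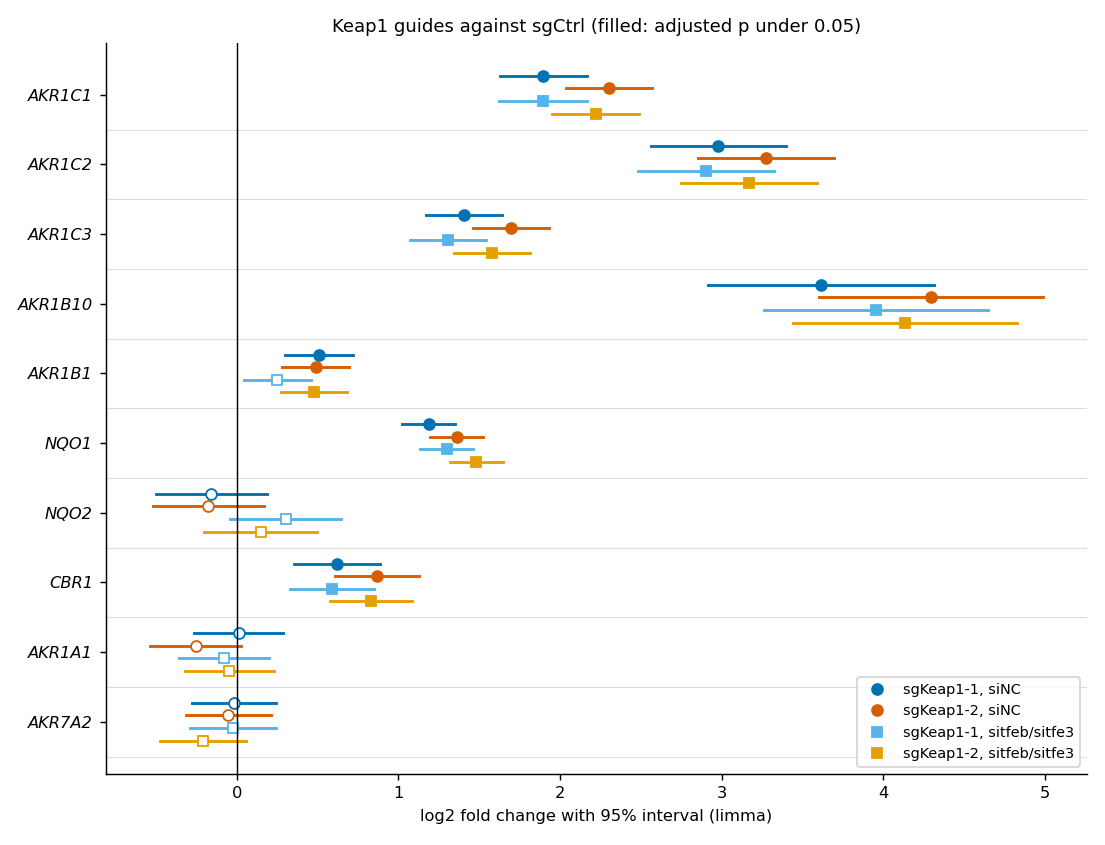
Log2 fold change of each gene with a Keap1 guide against sgCtrl (horizontal axis), with its 95% interval (bars) from the limma fit, under siNC (circles) and sitfeb/sitfe3 (squares). Filled symbols have an adjusted p under 0.05: AKR1B10 reaches 4.30 and AKR1C2 3.27 with sgKeap1-2 under siNC, AKR1B1 is open at 0.25 for sgKeap1-1 under sitfeb/sitfe3, and NQO2, AKR1A1 and AKR7A2 are open throughout.

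Counted together, 7 of the 10 genes were called higher (adjusted p under 0.05) with sgKeap1-1 and 7 with sgKeap1-2 under siNC, and none lower. Over all 11152 genes tested, 6.01% and 7.58% were called higher, 4.91% and 7.14% lower, and 10.9% and 14.7% in either direction. Under sitfeb/sitfe3, 6 and 7 of the 10 were called higher and none lower, beside 5.69% and 10.6% of all genes higher, 4.81% and 9.59% lower, and 10.5% and 20.2% in either direction. The median log2 fold change of the 10 genes was 0.90 and 1.11 under siNC and 0.94 and 1.16 under sitfeb/sitfe3, where that of all genes was -0.02, 0, 0 and 0.01. All 4 Keap1 libraries lay above all 4 sgCtrl libraries for 7, 7, 6 and 7 of the 10, against 7.67%, 11%, 9.06% and 10.6% of all genes. Within a prefix, AKR1C1, AKR1C2, AKR1C3, AKR1B10, NQO1 and CBR1 were higher with each guide in 4 of 4 same-numbered pairs under either siRNA. The lack of overlap fixes this in advance, so it adds nothing to the separation. AKR1B1 was higher in 3 of 4 pairs with sgKeap1-1 under sitfeb/sitfe3 and in 4 of 4 otherwise. Both guides share the sgCtrl libraries of their siRNA, so the counts are not independent of each other. Since the members were listed with earlier results known, the counts describe these genes and are no independent evidence.

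The 10 genes took up a growing share of each library. Their reads made up 0.267 ± 0.026% (SD, n = 4) of the reads in named genes with sgCtrl under siNC, 0.996 ± 0.048% with sgKeap1-1 and 1.26 ± 0.073% with sgKeap1-2. Under sitfeb/sitfe3 the shares were 0.247 ± 0.054%, 0.915 ± 0.043% and 1.08 ± 0.050%. AKR1C1, AKR1C2 and AKR1C3 alone held 0.161% with sgCtrl, 0.704% with sgKeap1-1 and 0.907% with sgKeap1-2 under siNC.

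The ratios of reads within the AKR1C cluster differed between sgCtrl and the Keap1 guides in every library, though the tests below could not pass the threshold after adjustment. For every AKR1C1 read there were 0.307 ± 0.095 AKR1C2 reads with sgCtrl under siNC, 0.630 ± 0.081 with sgKeap1-1 and 0.584 ± 0.080 with sgKeap1-2, and 0.357, 0.707 and 0.675 under sitfeb/sitfe3. No Keap1 library had as low a ratio as any sgCtrl library under the same siRNA. AKR1C3 went the other way, from 0.204 ± 0.009 reads per AKR1C1 read with sgCtrl to 0.146 ± 0.016 and 0.134 ± 0.009 under siNC, and from 0.258 to 0.170 and 0.164 under sitfeb/sitfe3. Each of these 8 differences had p = 0.0286 in an exact two-sided permutation test of the log2 ratio, the smallest p that 4 against 4 libraries can give. Benjamini-Hochberg adjustment over the 14 ratio tests gave 0.05, which does not pass the threshold. With only these 8 at the smallest p, the adjusted value is the same however large the differences are. The miss therefore says nothing of their size. The ratios were chosen after the values of these genes were seen. Reads of these paralogues cannot be fully told apart: among the last 400 bases of annotated coding transcripts on GRCh37, 14.4% to 66.3% of the 75-base words of AKR1C2 also occur in AKR1C1, across 4 transcripts. For AKR1C1 the share was 0% to 36.2% across 3 transcripts, and for AKR1C3 5.83% to 29.8% across 4. AKR7A2 shared up to 9.20% with AKR7A3 and AKR7L, and the other 6 genes shared no such word. How reads that fit several genes were counted is not given in the sources used here, and its part in the ratios was not tested. Summed into 1 feature, which is not affected by exchange among the 3, the AKR1C genes had log2 fold changes of 2.13 and 2.49 under siNC and 2.11 and 2.41 under sitfeb/sitfe3.

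**Figure D3:**
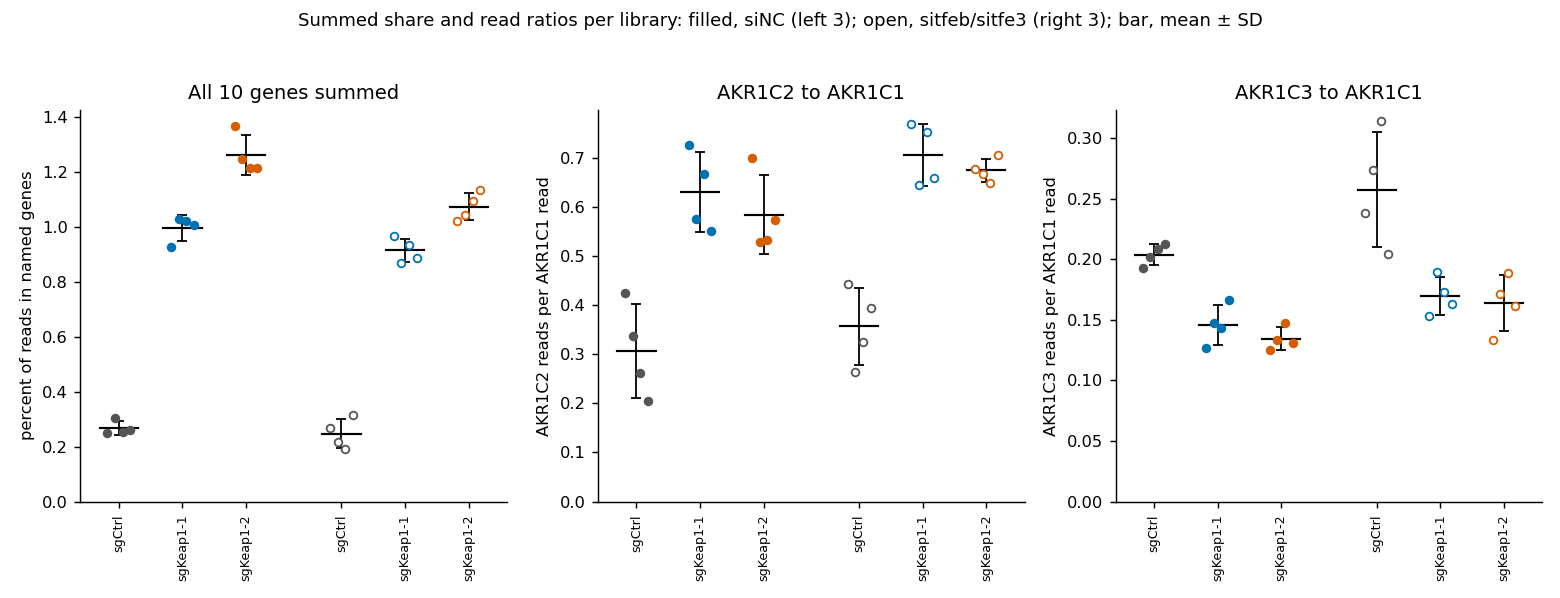
Per library (points, with mean and SD as bars) and group, the percent of reads in named genes that the 10 genes hold (left), AKR1C2 reads per AKR1C1 read (middle) and AKR1C3 reads per AKR1C1 read (right), each axis from 0. Against sgCtrl under the same siRNA, the Keap1 groups are higher in the left and middle panels and lower in the right panel.

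The 2 guides were compared with each other to see whether the size of the rise depended on the guide. Averaged over the siRNAs, sgKeap1-2 exceeded sgKeap1-1 by 0.37 log2 units for AKR1C1 (95% interval 0.18 to 0.55, limma adjusted p = 0.161). The differences were 0.28 for AKR1C3, 0.24 for CBR1, 0.18 for NQO1, 0.43 for AKR1B10 and 0.28 for AKR1C2. None of the 10 was called in the limma fit, where 13 genes, or 0.117% of all, were called. The unadjusted p was under 0.05 for 4 of the 10, AKR1C1, AKR1C3, NQO1 and CBR1, and for 951 genes or 8.53% of all, and edgeR and DESeq2 called 0 of the 10. AKR1C1 passed in other fits: with the 4 groups of the contrast alone (adjusted p = 0.00251), with the replicate number as a block (0.0478), where 48 genes were called in all, and without the libraries numbered 1 (0.0355). Within a prefix, sgKeap1-2 was above sgKeap1-1 in 4 of 4 pairs under either siRNA for AKR1C1, AKR1C2, AKR1C3, NQO1 and CBR1. For AKR1B10 it was so in 4 of 4 under siNC and 3 of 4 under sitfeb/sitfe3, and the other genes were mixed. Under siNC the ranges of the 2 guides were also separate for AKR1C3, CBR1 and AKR1B10. Neither was counted over all genes, and separate ranges fix the pairs in advance.

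Knockdown of TFEB and TFE3 left the 10 genes uncalled in each guide background. The comparison asks whether the levels change when RNA of these factors is lowered but not absent. Mean TFE3 remained at 11.9 to 16.5 CPM after sitfeb/sitfe3. Within sgCtrl, sgKeap1-1 and sgKeap1-2 the limma fit called 0 of the 10 each time, where 0.0179%, 0.0897% and 0.359% of all genes were called in either direction. The unadjusted p was under 0.05 for 1 gene in each background, AKR1C1 every time, where 4.63%, 8.08% and 10.5% of all genes were, so 1 of 10 is near the share over all genes in the Keap1 backgrounds. edgeR and DESeq2 called 0 of the 10. Adding a block for the replicate number, limma called 4 genes in place of 2 in sgCtrl and 30 in place of 10 in sgKeap1-1, and 0 of the 10 in each background. The intervals were narrow for NQO1, with log2 fold changes of -0.12 (95% interval -0.28 to 0.05) in sgCtrl, -0.003 (-0.16 to 0.16) in sgKeap1-1 and 0.005 (-0.16 to 0.17) in sgKeap1-2. They were wide for AKR1B10, at -0.02 (-0.79 to 0.74), 0.31 (-0.30 to 0.93) and -0.19 (-0.79 to 0.42). In sgKeap1-1 the value for AKR1B10 was -0.13 without the libraries that stand apart. AKR1C2 and AKR1C3 lay between -0.17 and 0.01.

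AKR1C1 had the same sign after knockdown in every background, as did AKR1C2 (-0.066, -0.143 and -0.17), AKR7A2 (-0.077, -0.084 and -0.234) and CBR1 (0.137, 0.105 and 0.099). The log2 fold changes of AKR1C1 were -0.31 in sgCtrl, -0.31 in sgKeap1-1 and -0.39 in sgKeap1-2 (limma adjusted p = 0.9996, 0.531 and 0.235). The sgCtrl value rests on single libraries. It was -0.13 without replicate 3 and -0.48 without replicate 4 of sgCtrl under sitfeb/sitfe3, and AKR1C1 was lower in 2 of 4 same-numbered pairs there. In each Keap1 background it was lower in 4 of 4 pairs, which the separate ranges given next fix in advance. AKR1C2 had the same counts of pairs in the 3 backgrounds. For AKR1C1, leaving out 1 library gave -0.34 to -0.29 in sgKeap1-1 and -0.43 to -0.37 in sgKeap1-2. In sgKeap1-1 all 4 libraries after sitfeb/sitfe3, at 3038 to 3403 CPM, lay below all 4 siNC libraries, at 3914 to 4133. In sgKeap1-2 they did so as well, at 3791 to 4311 against 5023 to 5516, while in sgCtrl the ranges overlapped. Such separation downwards occurred in 2.87% and 3.19% of all genes in these backgrounds. Averaged over the 3 backgrounds, a contrast added after these values were seen, AKR1C1 differed by -0.34 (SE 0.08, 95% interval -0.49 to -0.18, limma adjusted p = 0.0114). It was the only member called, among 260 genes or 2.33% of all. The adjusted p was 0.0198 in edgeR, 0.00506 in DESeq2 and 0.00526 without the libraries that stand apart. The summed AKR1C feature differed by -0.21, -0.23 and -0.29 in the 3 backgrounds and did not pass the test in any, as AKR1C1 alone did not. The averaged contrast was not run for the sum. Among the other genes, NQO2 was lower in all 4 libraries in sgCtrl, where 1.75% of all genes were (log2 -0.29, 95% interval -0.63 to 0.06), and AKR1A1 higher in all 4 in sgKeap1-2, where 2.53% were (0.18, 95% interval -0.11 to 0.46).

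**Figure D4:**
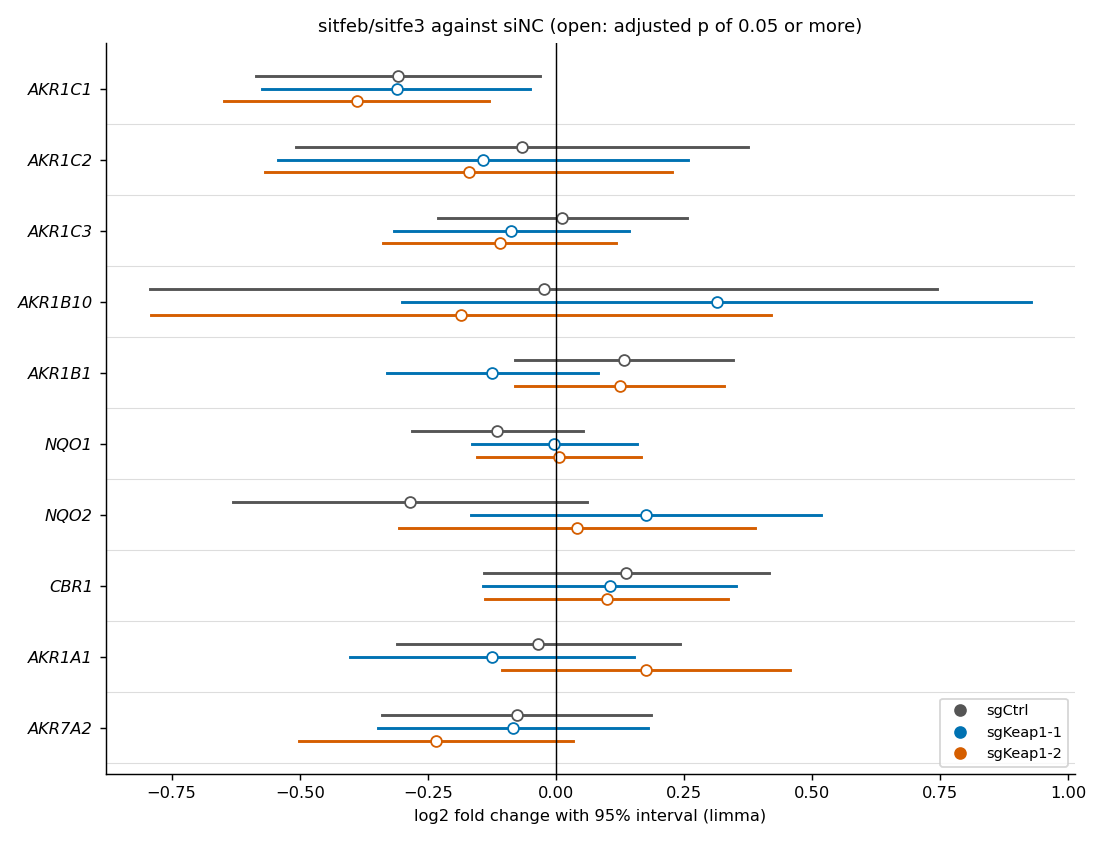
Log2 fold change of each gene after sitfeb/sitfe3 against siNC (horizontal axis) with its 95% interval (bars) from the limma fit, in sgCtrl, sgKeap1-1 and sgKeap1-2 cells. All symbols are open, since no adjusted p was under 0.05. The intervals of AKR1C1 lie below 0 in the 3 backgrounds and those of the other genes include 0.

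The Keap1 effect under sitfeb/sitfe3 was set against that under siNC, averaged over guides. None of the 10 was called (limma), none had an unadjusted p under 0.05, and edgeR and DESeq2 called 0. Over all genes 0 (0%) were called, with 349 at an unadjusted p under 0.05. For NQO1 the difference was 0.12 log2 units (95% interval -0.09 to 0.32), for AKR1C1 -0.04 (-0.37 to 0.29), for AKR1C2 -0.09 (-0.61 to 0.43), for AKR1C3 -0.11 (-0.40 to 0.18) and for CBR1 -0.04 (-0.36 to 0.29). That of AKR1B10, 0.09, had the widest interval, -0.79 to 0.97. NQO2 had the largest value, 0.39 (-0.03 to 0.82).

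Other carbonyl and quinone reductases moved in both directions. Of 44 such genes listed, 31 were in the table and 29 were tested, with 4 called higher and 5 lower with sgKeap1-1, and 4 higher and 6 lower with sgKeap1-2 under siNC. Under sitfeb/sitfe3 the counts were 4 higher and 5 lower, and 4 higher and 7 lower, and knockdown called 0 of them in each background. Their median log2 fold change was -0.02 and 0.10 under siNC. PTGR1, which reduces lipid alkenals, rose most under siNC. Its level went from 39.3 ± 23.3 CPM with sgCtrl to 789 ± 125 with sgKeap1-1 and 1085 ± 82.2 with sgKeap1-2. On the log2 scale the rise with sgKeap1-1 was 4.50 (SE 0.33, limma adjusted p = 4.14e-10). With sgKeap1-2 the rise reached 4.97 (SE 0.33, limma adjusted p = 4.43e-11). PTGR1 was the only gene of the list to rise as far as AKR1B10. VAT1, a quinone oxidoreductase homologue, rose by 0.63 and 0.66 on the log2 scale, AIFM2, the ubiquinone reductase also known as FSP1, by 0.56 and 0.65, and TP53I3 by 0.64 and 0.45. DHRS2, a mitochondrial short-chain dehydrogenase, fell by 0.74 and 0.91 on the log2 scale, HSD17B11 by 0.51 and 0.58, and POR, which passes electrons to cytochromes P450, by 0.46 and 0.58. AKR1C4, AKR1B15, AKR7A3 and CBR3 were not analysed here.

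**Figure D5:**
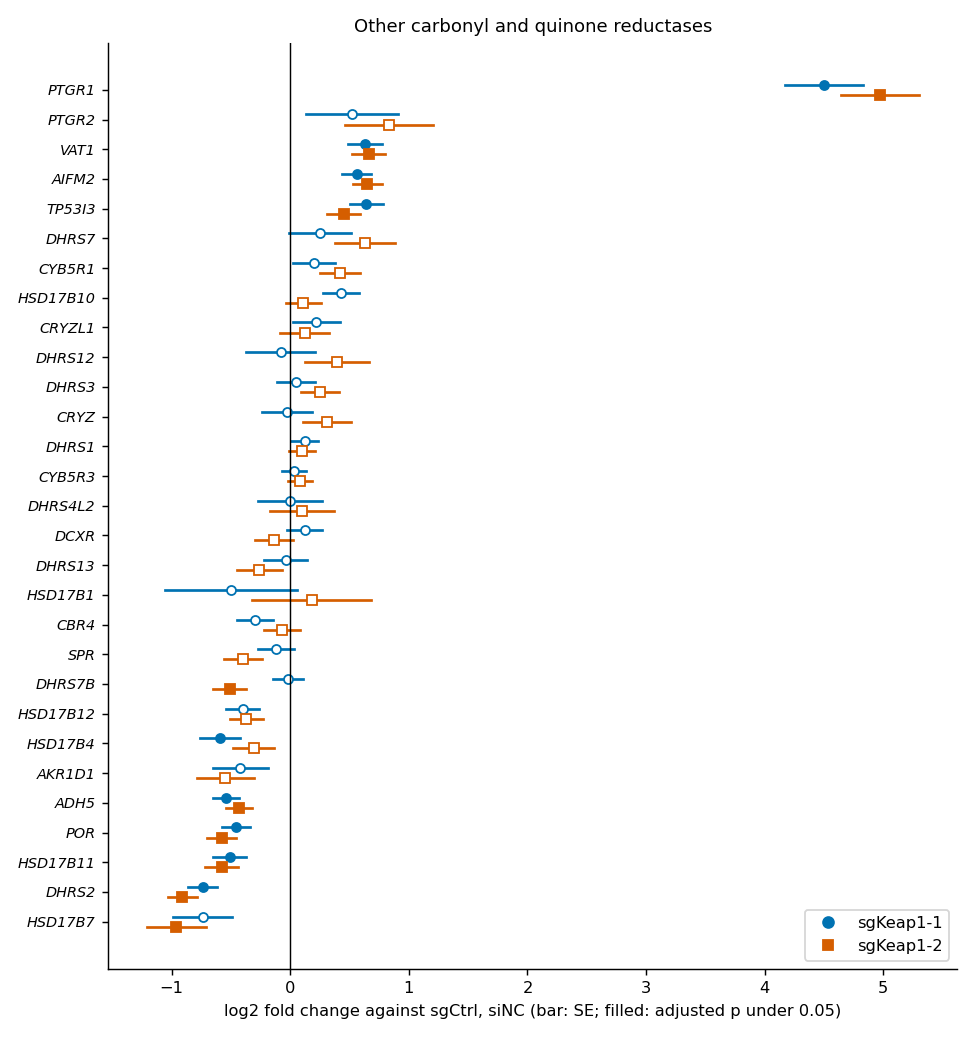
Log2 fold change against sgCtrl under siNC (horizontal axis) of the 29 other carbonyl and quinone reductases tested, with sgKeap1-1 (circles) and sgKeap1-2 (squares), bars showing the SE and filled symbols an adjusted p under 0.05. PTGR1 stands apart at 4.50 and 4.97, and the filled symbols on the left include DHRS2, POR and HSD17B11.

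Of 24 reference NRF2 target genes tested beside the 10, 19 and 21 were called higher under siNC, 20 and 21 under sitfeb/sitfe3 and none lower. This list was compiled from known targets with earlier results of these data known. OSGIN1 rose by 2.07 and 2.34 on the log2 scale, TXNRD1, thioredoxin reductase, by 2.04 and 2.43, GCLM, of glutathione synthesis, by 1.88 and 2.17, EPHX1, epoxide hydrolase, by 1.82 and 1.91, and the efflux pump ABCC3 by 1.56 and 1.64. Among the regulators of NRF2, SQSTM1, the autophagy receptor p62, rose by 1.19 and 1.44. NFE2L2, which encodes NRF2, was at 223 ± 33.1 CPM with sgCtrl, 178 ± 28.8 with sgKeap1-1 and 186 ± 13.4 with sgKeap1-2 under siNC and was not called.

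Genes with the most similar pattern were sought for NQO1, AKR1B10 and AKR1C1 by Pearson r of log2 CPM over the 24 libraries among 10528 genes. These values are descriptions, since the libraries share groups and so a high r mostly follows the group means. For NQO1 they were SPP1 (0.991), LUCAT1 (0.987) and PTGR1 (0.985). For AKR1B10 they included PTGR1 (0.984) and ASPH (0.983), and for AKR1C1 they were OSGIN1 (0.982), TUSC3 (0.974) and CDA (0.973). On deviations from the group means, r was 0.729 for NQO1 with SPP1, 0.743 for AKR1B10 with PTGR1 and 0.657 for AKR1C1 with OSGIN1. Without the 2 libraries that stand apart these became 0.738, 0.882 and 0.758.

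Between libraries of 1 group, the deviations of the 7 genes that rose were related to differing degrees. Over their 21 pairs, r ran from -0.336 (AKR1B1 with CBR1) to 0.767 with a median of 0.389, and 9 pairs were above 0.5. The deviations of AKR1B10 and NQO1 had r = 0.767 over 24 libraries and 0.854 over the 22 without those that stand apart, those of AKR1C1 and AKR1C2 had 0.653 and 0.663, and those of AKR1C1 and AKR1C3 had 0.597 and 0.717. AKR1C2 and AKR1C3 had 0.013 and 0.108. CBR1 had 0.521 with AKR1C1 but 0.149 with NQO1 and 0.012 with AKR1B10, and AKR1B1 had 0.091 with AKR1C3, all over 24 libraries. AKR1B10 and AKR7A2 had -0.467 over 24 libraries and 0.017 over 22, so that value rests on the libraries that stand apart. The same holds for AKR1A1 with AKR7A2, at 0.658 and 0.302. The points share library and depth, and no p is given.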

How the data were processed

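RNA from HepG2 cells was measured by QuantSeq, in which reads fall near the 3′ end of polyadenylated transcripts, so levels were not divided by gene length and were not compared between genes. The table the authors deposited holds raw read counts, whole numbers with no normalization, 1 column per library. According to the study's methods reads were trimmed, aligned to hg19 (GRCh37) with STAR and assigned to genes with featureCounts, while the submitters' processing notes name hg38 and list STAR 2.7.5b, featureCounts 1.6.3, cutadapt 1.16 and limma 3.40.6. Which build was used was not settled. Rows with no gene ID (1414 of 13446 rows, 1.35% to 2.57% of the reads of a library) were left out of library sizes and tests. The smallest row total was 15 reads over the 24 libraries, so the table lists no gene at 0 throughout.

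Counts were fitted with limma-voom (R 4.3.3, with edgeR 4.0.16 and limma 3.58.1), the test the study's methods name, after filterByExpr and TMM scaling, on all 24 libraries with 6 group means and 9 contrasts. Tests are two-sided, with Benjamini-Hochberg adjustment over 11152 genes and a threshold of 0.05. CPM used TMM-scaled library sizes, and log2 CPM a prior count of 2. Total reads per library had a median of 4181650.5. Reads carry no molecular identifiers. Same-numbered libraries share a date-like prefix in the sample descriptions, whose meaning is not stated. Their deviations from the group means had r of -0.066 to 0.26 (mean 0.073 over 28 pairs). Blocked values are therefore given where they change a call of a member, and for some of the counts over all genes. Other counts moved with the block as well, such as 1218 to 1454 for sgKeap1-1 against sgCtrl under siNC. The fit was tested on simulated counts. Alternatives were RLE factors, no filter, edgeR's quasi-likelihood test, DESeq2 1.42.0, a replicate block, the groups of a contrast alone, summed paralogues, each library left out in turn and all libraries numbered 1 left out, and, chosen after seeing the data, the 2 libraries that stand apart left out, the averaged knockdown contrast and the ratio tests. Gene spans come from the GENCODE annotation of GRCh37 and promoter windows from RefSeq on GRCh38.p14.

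The members and lists were chosen with earlier results of these data known. Genes named from a list are those called in the same direction with both Keap1 guides under siNC with a mean of at least 10 reads per library, up to 5 higher and 3 lower by the smaller absolute log2 fold change of the 2 guides. The 3 genes with the highest r are named for NQO1, AKR1B10 and AKR1C1, except 1 for AKR1B10 that is not reported here.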

Additional observations from a re-analysis of the deposited data

Results flagged for a closer look

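The 60 sets of 4 libraries, 10 genes in 6 groups, were searched for a library whose gap to the nearest of the others, divided by the range of the group, exceeded Dixon's 95% critical value for 4 samples. There were 4 such sets, where chance at 5% of sets gives about 3. NQO1 with sgKeap1-1 under siNC had a ratio of 0.864, from replicate 1 at 1497 CPM beside 1618 to 1637. CBR1 in the same group had 0.84, from replicate 2 at 41.4 CPM beside 50.02 to 51.7. AKR1A1 with sgKeap1-2 under sitfeb/sitfe3 had 0.847, from replicate 1 at 102 CPM beside 77.7 to 81.4. AKR7A2 with sgCtrl under siNC had 0.868, from replicate 1 at 67.6 CPM beside 61.7 to 62.5. In 2 of the 4 sets, those of NQO1 and AKR1A1, the far library is one that stands apart on the second principal component.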

How the results depend on the processing

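Every call of a member against sgCtrl kept its direction and its side of the threshold under all alternatives run, and no call of a member changed when a single library was left out. Outside leaving out single libraries, 716 of 747 values of a member in a contrast kept both, 0 calls were lost, 6 values passed only under the alternative, and 25 changed sign, 0 of them past the threshold. On leaving out 1 library 55 of 960 values changed sign, and 0 calls were gained or lost. For the difference between the guides, members called went from 0 to 1 with the replicate block, 1 with the groups of the contrast alone and 2 without the libraries numbered 1, where AKR1C1 (adjusted p = 0.0355) and AKR1C3 (0.0261) passed. Without the libraries numbered 1, AKR1B1 with sgKeap1-1 under sitfeb/sitfe3 (log2 0.33, adjusted p = 0.0386) and AKR7A2 with sgKeap1-2 under sitfeb/sitfe3 (-0.35, adjusted p = 0.0182) also passed. The sum of AKR1B10 with AKR1B15 was not run because AKR1B15 was not analysed here.

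Counts over all genes moved more, and the cause was not tested. For knockdown in sgCtrl the 2 genes called became 11 with DESeq2, 4 with the replicate block, 13 without the libraries numbered 1, 4 without the 2 libraries that stand apart and 1 to 2 on leaving out 1 library. In sgKeap1-1, 10 became 48 with DESeq2, 30 with the block, 1 with the groups of the contrast alone, 37 without the libraries numbered 1, 23 without those that stand apart and 3 to 15 on leaving out 1. In sgKeap1-2, 40 became 108 with DESeq2, 11 with the groups alone, 109 without the libraries numbered 1, 69 without those that stand apart and 12 to 29 on leaving out 1. Between the guides, 13 became 46 with DESeq2, 48 with the block, 99 without the libraries numbered 1 and 7 to 21 on leaving out 1. For sgKeap1-1 against sgCtrl under siNC, 1218 became 766 with those groups alone. For sgKeap1-2 under siNC, 1641 became 1944 with the groups alone. Under sitfeb/sitfe3, 1170 became 1513 for sgKeap1-1 and 2253 became 1596 for sgKeap1-2. In the same order, the counts for these 4 comparisons were 1618, 2117, 1729 and 2594 without the libraries numbered 1. Without the 2 libraries that stand apart they were 1612, 2308, 1661 and 2621.

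None of the 25 values that changed sign passed the threshold in either fit. In edgeR and in DESeq2 the knockdown value in sgCtrl was 0.10 for AKR1B10 and 0 for AKR1C2, the value with sgKeap1-1 under siNC was 0 for AKR7A2, and the difference of Keap1 effects was -0.10 for AKR1B10. With no filter NQO1 was at 0 and -0.01 on knockdown in sgKeap1-1 and sgKeap1-2. Without the libraries numbered 1, AKR1A1 with sgKeap1-1 under siNC was -0.18, AKR7A2 with sgKeap1-2 under siNC 0.04, AKR1C3 and AKR7A2 on knockdown in sgCtrl -0.11 and 0.03, AKR1B10 on knockdown in sgKeap1-1 -0.11, and the difference of Keap1 effects 0.06 for AKR1C1, 0.01 for AKR1C2 and 0 for AKR1C3. Without the libraries that stand apart, AKR1A1 with sgKeap1-1 under siNC was -0.15, AKR1B10, AKR1A1 and AKR7A2 on knockdown in sgKeap1-1 were -0.13, 0.04 and 0.04, NQO2 between the guides was 0 and the difference of Keap1 effects for AKR1B10 was -0.04. The summed AKR1C feature was -0.21 on knockdown in sgCtrl, where AKR1C3 alone was 0.01. The values whose sign changed on leaving out 1 library had these ranges. With sgKeap1-1 against sgCtrl under siNC the log2 values ran from -0.15 to 0.15 for AKR1A1 and -0.14 to 0.05 for AKR7A2. With sgKeap1-2 against sgCtrl under siNC the log2 values ran from -0.09 to 0.01 for AKR7A2. With sgKeap1-1 against sgCtrl under sitfeb/sitfe3 the log2 values ran from -0.10 to 0.05 for AKR7A2. With sgKeap1-2 against sgCtrl under sitfeb/sitfe3 the log2 values ran from -0.13 to 0.00 for AKR1A1. On knockdown in sgCtrl the log2 values ran from -0.30 to 0.14 for AKR1C2, -0.12 to 0.10 for AKR1C3, -0.34 to 0.22 for AKR1B10 and -0.11 to 0.03 for AKR1A1. On knockdown in sgKeap1-1 the log2 values ran from -0.12 to 0.51 for AKR1B10, -0.25 to 0.04 for AKR1A1, -0.16 to 0.04 for AKR7A2 and -0.03 to 0.01 for NQO1. On knockdown in sgKeap1-2 the log2 values ran from -0.05 to 0.05 for NQO1 and -0.03 to 0.11 for NQO2. Between the guides the log2 values ran from -0.17 to 0.01 for NQO2. In the difference of Keap1 effects between the siRNAs the log2 values ran from -0.21 to 0.13 for AKR1C1, -0.20 to 0.02 for AKR1C3, -0.15 to 0.40 for AKR1B10, -0.02 to 0.14 for AKR1A1, -0.30 to 0.14 for AKR1C2 and -0.14 to 0.02 for CBR1.

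Same-numbered libraries deviated together weakly, with r above 0 in 21 of 28 pairs (mean 0.073, range -0.066 to 0.26), against 34 of 84 pairs of different numbers (mean -0.024). The replicate block, fitted because same-numbered libraries share a prefix, called AKR1C1 between the guides (0.37, adjusted p = 0.0478) and changed no other call of a member. Depth limits NQO2 most, at 46 to 105 reads per library.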
